A study of Mus musculus with 16 samples.

Results

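The 39 genes described here encode enzymes and transporters of glycolysis, of lactate and pyruvate handling and of the pentose phosphate pathway. They were taken by gene symbol, and each was read as the log2 intensity of its brightest probe set, out of 19531 genes that had a probe set named for 1 gene. Of the 39 members, 34 had such a probe set. The other 5 members, Gpi1, Gapdh, Eno1, Mpc2 and G6pdx, had none and were not analysed here. Gapdh was listed on 17 probe sets, each time together with other genes. The tests took genes whose mean reached 7.06 log2, the median over the named probe sets, in at least 1 group, which left 32 members among 10662 genes. Hk3, the hexokinase best known in myeloid cells, ran from 5.95 to 6.47 log2 over the 16 arrays, and Eno2, the neuronal enolase, from 6.31 to 6.87. Both stayed under that level in all 8 groups and were not tested.

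The arrays profiled CD4- CD8- thymocytes of mice aged 4 weeks, 16 samples in 8 groups of 2, to set B6g7 against NOD with and without a transgenic T cell receptor (TCR). B6g7 is the C57BL/6 background with the MHC haplotype of NOD, the strain that develops autoimmune diabetes. Mice labelled non-Tg have a polyclonal TCR repertoire, and mice labelled BDC carry the BDC2.5 TCR transgene, the rearranged receptor of a diabetogenic CD4 T cell clone. After complement had removed CD4 and CD8 cells, DN2-3 cells were sorted as Lin- CD25+ and DN4 cells as Lin- CD44- CD25-. The DN2-3 gate did not use CD44, so it holds DN2 and DN3 cells together. The groups were B6g7, NOD, BDC/B6g7 and BDC/NOD, each at DN2-3 and at DN4. All 8 non-Tg arrays came from females, and each BDC group had 1 male and 1 female array. The promoter of the transgene, the lineage antibodies and the number of animals per sample are not given in the labels, so p-values measure the spread between these samples only.

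Glycolysis splits glucose into pyruvate and yields ATP and carbon for biosynthesis, and dividing lymphocytes run it fast. Pyruvate is either reduced to lactate, which leaves the cell through monocarboxylate transporters, or enters mitochondria, where pyruvate dehydrogenase oxidizes it and the kinases of the Pdk family switch that enzyme off. The pentose phosphate pathway branches from glycolysis and supplies NADPH and ribose for nucleotides. In the thymus, DN3 cells that pass beta-selection divide rapidly and take up more glucose while they become DN4 cells.

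The median intensity of an array lay between 123.1 and 138.2, and the arrays of a pair correlated across genes with r from 0.986 to 0.997. Probe sets of 3 Y-linked genes read at most 5.98 log2 on female arrays, which is used here as the level of background. Il2ra, which encodes CD25, was bright on every DN2-3 array and dimmer on every DN4 array, as the gates require (12.32 to 13.30 against 9.09 to 10.56 log2). Some defining markers of other lineages stayed under it: Cd79a of B cells reached at most 5.66, Adgre1 of macrophages 4.90, Klrb1c of NK cells 4.14 and Epb42 of erythroid cells 5.70. Others did not. Above that level on at least 1 array were 4 of 7 matched B cell genes (Cd79b up to 9.69), 8 of 13 myeloid and dendritic genes (Cd68 up to 8.88), 4 of 8 NK and NKT genes (Gzma up to 11.97), 4 of 5 matched erythroid genes and 7 of 8 thymic stroma genes (Epcam up to 8.28). Bright enough to be tested were 1, 3, 3, 1 and 5 of these. In bulk samples such as these, fewer cells of a type and less RNA per cell cannot be told apart.

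NOD DN2-3 replicate 1 stood apart. Over the 34 measured members its median difference from replicate 2 was -0.34 log2, with 26 members lower and 14 members more than 0.5 apart. The same median lay between -0.12 and 0.06 in the other 7 groups, and over all genes it was 0.06 in NOD DN2-3. Ldha read 10.97 and 12.17, Pgd 8.10 and 9.31 and Tpi1 9.71 and 10.80 in this pair. Its upper to lower quartile ratio of 6.82 was the narrowest, against 7.46 to 10.3 elsewhere. Member counts that use NOD DN2-3, and the values of the members that lead them, are therefore given with and without this array. Marker counts are given with all arrays. Other settings mostly lack the share of all genes called, so moves in member counts there are not read as particular to the members. The model used for the tests shares 1 estimate of spread per gene over the 8 groups, so this pair also widened standard errors in comparisons without NOD DN2-3. The stage and transgene counts in B6g7 also rose when the array was left out. For members far apart in this pair, the lack of a call does not show the lack of a difference. NOD DN4 had a smaller shift in the same direction, with a median of -0.12 and 27 of 34 members lower in replicate 1. Across tested genes the replicate differences of NOD DN2-3 and NOD DN4 correlated with r = 0.585, the highest of 28 pairs of groups. Leaving out NOD DN2-3 replicate 1 keeps NOD DN4 replicate 1 in the NOD stage change.

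**Figure D1:**
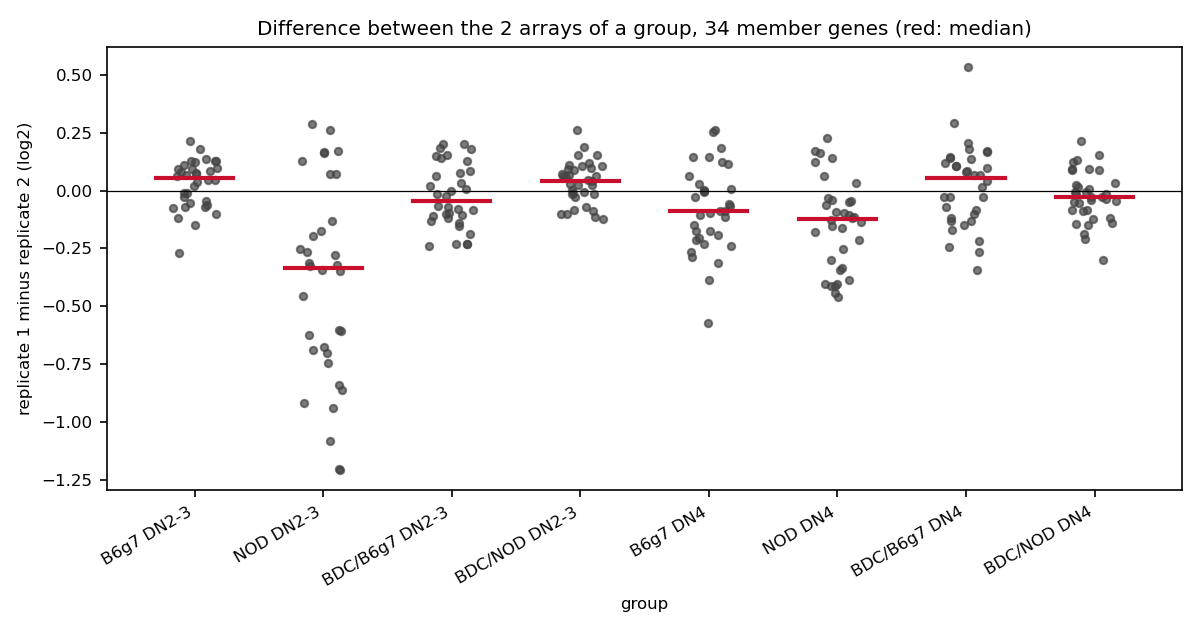
Difference between replicate 1 and replicate 2 of each group (vertical axis, log2) for 34 members (points, spread sideways for legibility) with the median as a red bar. The NOD DN2-3 median of -0.34 lies below those of the other 7 groups, which run from -0.12 to 0.06.

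**Figure D2:**
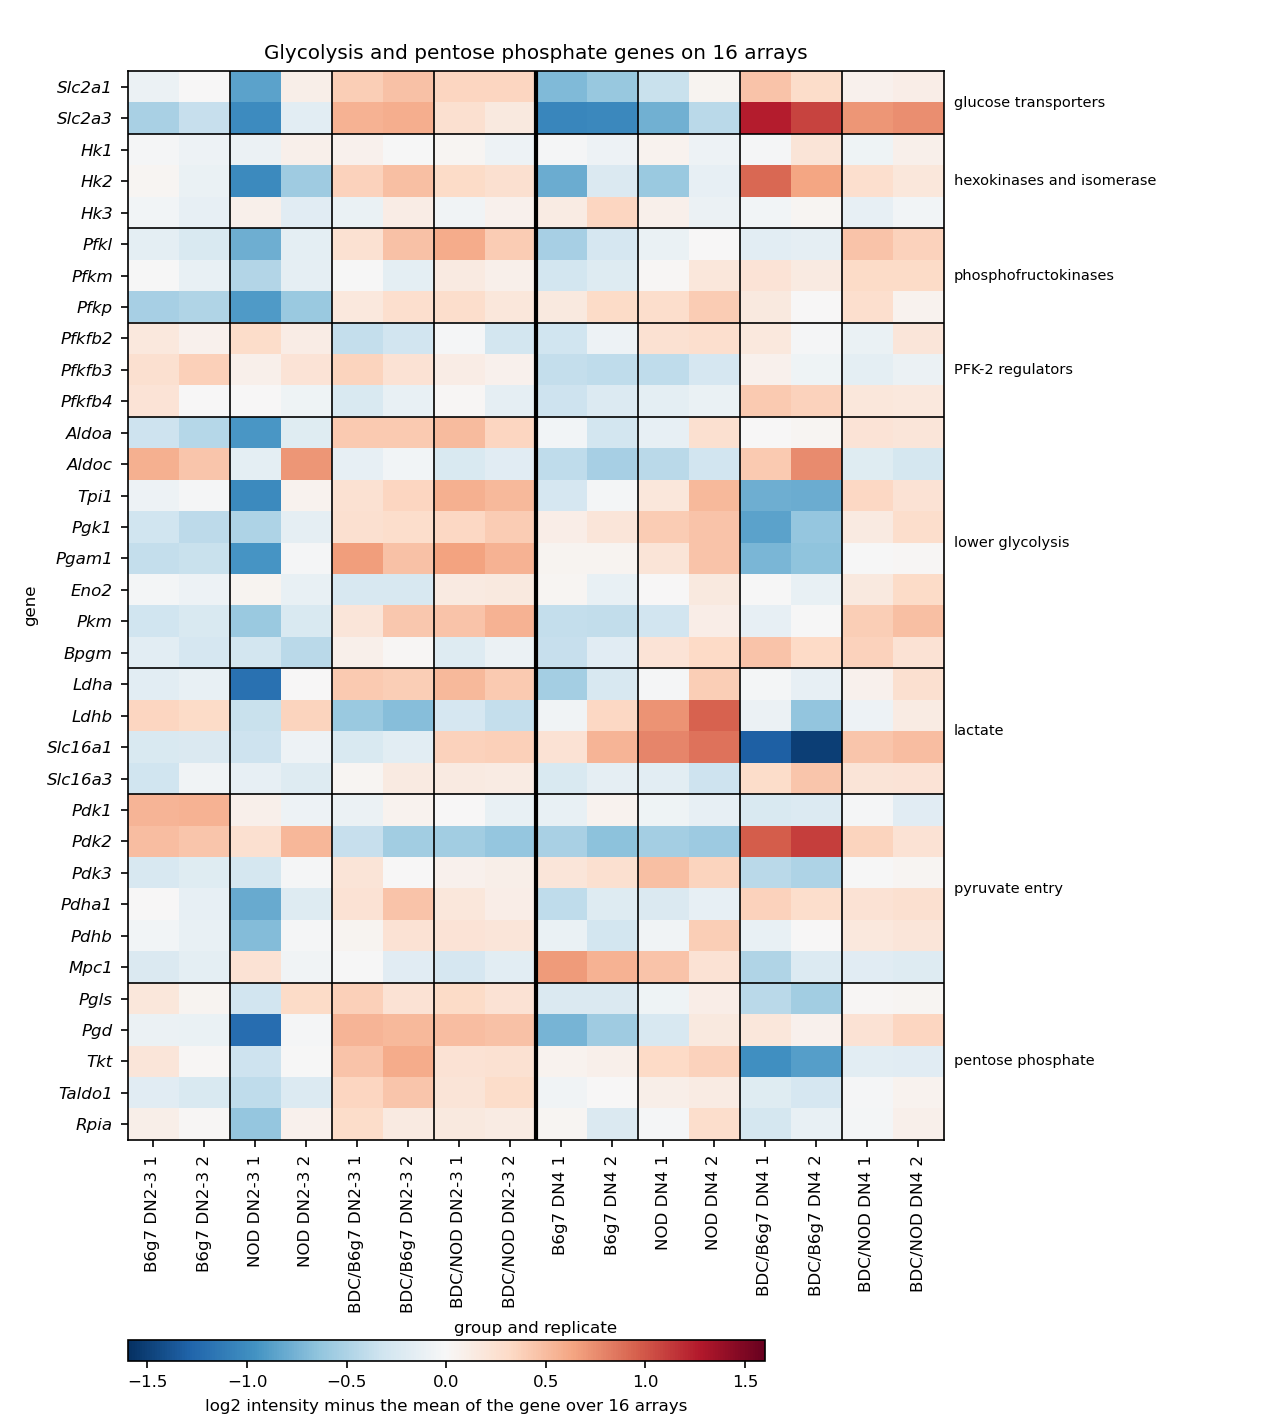
Log2 intensity of 34 members (rows, by role) on 16 arrays (columns, by group and replicate), each as the difference from the gene's mean over the arrays. Members were mostly above their own mean in BDC/NOD DN2-3 (27 and 25 of 34 on its arrays) and below it in NOD DN2-3 (8 and 11 above).

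Members differed widely in how much they moved. Group means of Slc16a1, the lactate and pyruvate transporter MCT1, spanned 2.23 log2, and those of Slc2a3, the high-affinity glucose transporter GLUT3, spanned 2.21. Pdk2 spanned 1.62, Hk2 1.57, Ldhb 1.47 and Tkt 1.46. Called means an adjusted p of at most 0.05 with limma over all 10662 genes. Hk1 spanned 0.14 and Rpia, the pentose phosphate isomerase, 0.49, and neither was called in any of the 12 comparisons of 2 groups. Slc16a1 and Pdk2 were called in 9 of the 12 comparisons, Tkt in 8, and Pgk1 and Pdk3 in 7.

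For 5 members the brightest probe set is numbered among probe sets of another chromosome, so it may not read the gene's own locus. For Hk1, the constitutive hexokinase, that probe set was flat, with group means from 12.49 to 12.64, while the Hk1 probe set numbered at its own locus had means from 8.92 in B6g7 DN4 to 9.69 in NOD DN2-3. By the own-locus probe set, Hk1 was lower in DN4 than in DN2-3 in B6g7 (-0.71 ± 0.11, limma adjusted p = 0.000235) and higher in BDC/B6g7 DN4 than in B6g7 DN4 (0.66 ± 0.11, adjusted p = 0.000139). It was also lower in NOD DN4 than in NOD DN2-3 (-0.37 ± 0.11, adjusted p = 0.0151) and in BDC/NOD DN2-3 than in NOD DN2-3 (-0.37 ± 0.11, adjusted p = 0.0183). It was higher in NOD DN4 than in B6g7 DN4 (0.40 ± 0.11, adjusted p = 0.024). The effect of BDC in DN4 minus that in DN2-3, averaged over the strains, was 0.63 ± 0.11 (adjusted p = 0.000218). Pgk1 and Pgam1 gave the same directions from both probe sets in every called comparison. Ldhb, the heart-type lactate dehydrogenase subunit, did not: in NOD DN4 against B6g7 DN4 it was 0.69 higher by the brightest probe set and -0.34 by its own-locus one (adjusted p = 0.0784). Mpc1, a subunit of the mitochondrial pyruvate carrier, had no own-locus probe set, so its values carry this doubt throughout. The own-locus choice was made after the values were seen.

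The first comparison asked what the BDC2.5 receptor changes at DN2-3. In both strains the transporter Slc2a3 and enzymes along the main line of glycolysis were higher in BDC DN2-3 cells, and Pdk2 was lower. In B6g7, 10 of the 32 members were higher and 6 lower, which is 50% of them, where 29.4% of all genes were called (16.9% higher and 12.5% lower). In NOD, 19 were higher and 2 lower, which is 65.6% against 35.7% of all genes (21.6% higher and 14.1% lower). Without NOD DN2-3 replicate 1 the NOD counts were 15 and 3, against 27.8% of all genes. The median difference over the members was 0.30 in B6g7 and 0.49 in NOD (0.27 without that array), and over all genes it was 0.03 and 0.06.

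Glucose entry is described first. Slc2a3 read 8.68 and 8.83 log2 in B6g7 DN2-3 and 9.75 and 9.78 in BDC/B6g7 DN2-3, a difference of 1.01 ± 0.20 (model standard error, limma adjusted p = 0.00227). In NOD DN2-3 it read 8.19 and 9.03 and in BDC/NOD DN2-3 9.46 and 9.35 (0.80 ± 0.20; 0.38 ± 0.13, adjusted p = 0.0415, without NOD DN2-3 replicate 1). The arrays of the 2 genotypes did not overlap in either strain. Hk2, the inducible hexokinase, was called in NOD, from 7.05 and 7.51 to 8.39 and 8.33 (1.08 ± 0.20, adjusted p = 0.00135; 0.85 ± 0.20 without NOD DN2-3 replicate 1). In B6g7 it read 8.10 and 7.97 against 8.44 and 8.56, a difference of 0.46 ± 0.20 that was not called (adjusted p = 0.0942). Whether the transgene effect at DN2-3 differed between the strains was not tested.

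Phosphofructokinase commits sugar to glycolysis, and its platelet and liver subunits Pfkp and Pfkl were higher in both strains. Pfkp read 8.60 and 8.65 in B6g7 and 9.30 and 9.40 in BDC/B6g7 (0.72 ± 0.12, adjusted p = 0.000641). In NOD it read 8.23 and 8.54, and in BDC/NOD 9.41 and 9.31 (0.98 ± 0.12; 0.82 ± 0.12 without NOD DN2-3 replicate 1). The muscle subunit Pfkm was called in NOD, though not without NOD DN2-3 replicate 1, and was not called in B6g7. Pfkfb2, which makes the activator of phosphofructokinase, fell in both strains, by 0.47 in B6g7 and by 0.36 in NOD, the latter not called without that array.

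Of the 7 tested members of lower glycolysis, which turns hexose phosphate into pyruvate, 4 rose in B6g7 and 5 in NOD. Pgam1, phosphoglycerate mutase, went from 10.34 and 10.36 to 11.40 and 11.19 in B6g7 (0.95 ± 0.21, adjusted p = 0.00423). In NOD DN2-3 it read 9.78 and 10.70, and in BDC/NOD DN2-3 11.36 and 11.27 (1.08 ± 0.21; 0.62 ± 0.12 without NOD DN2-3 replicate 1). Aldolase A, phosphoglycerate kinase and pyruvate kinase also rose in both strains. Aldoa rose by 0.81 ± 0.19 in B6g7 (adjusted p = 0.0068) and Pgk1 by 0.64 ± 0.12 (adjusted p = 0.00148). In NOD, Tpi1, triose phosphate isomerase, rose by 1.03 ± 0.24 (adjusted p = 0.00591; 0.48 ± 0.13 without that array), and in B6g7 it was not called. Its means were 10.68 in B6g7 and 11.03 in BDC/B6g7. The standard deviations of these pairs were 0.04 and 0.07, against 0.77 in NOD DN2-3, which enters the same standard error. Aldoc, the brain-type aldolase, fell in B6g7 from 7.81 and 7.68 to 7.11 and 7.19 (-0.59 ± 0.20, adjusted p = 0.0417). In NOD it was not called with all arrays (-0.49 ± 0.20) and was lower in BDC without NOD DN2-3 replicate 1 (-0.92 ± 0.13, adjusted p = 0.000134).

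The lactate genes split. Ldha, the main lactate dehydrogenase subunit of dividing cells, rose in NOD from 10.97 and 12.17 to 12.68 and 12.59 (1.06 ± 0.27, adjusted p = 0.00889), and by 0.46 ± 0.15 (adjusted p = 0.0349) without NOD DN2-3 replicate 1. In B6g7 it read 11.99 and 12.04 and in BDC/B6g7 12.58 and 12.56, a difference that was not called (0.56 ± 0.27, adjusted p = 0.138). The arrays of the 2 genotypes did not overlap, and the standard deviations of these pairs were 0.04 and 0.01. The standard error also holds the NOD DN2-3 pair, whose standard deviation was 0.85, so no strain difference is read from these calls. Ldhb fell in B6g7 from 8.95 and 8.91 to 8.01 and 7.93 (-0.96 ± 0.21, adjusted p = 0.00462), and its own-locus probe set gave -0.82 ± 0.13. In NOD Ldhb was not called with all arrays (-0.32 ± 0.21) and was lower in BDC without that array (-0.67 ± 0.19, adjusted p = 0.0156). Slc16a1 rose in NOD (10.37 and 10.62 against 11.07 and 11.09, a difference of 0.58 ± 0.12, or 0.46 ± 0.12 without that array) and read 10.47 and 10.48 against 10.47 and 10.54 in B6g7.

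At the entry of pyruvate into mitochondria, Pdk2 was lower in both strains. It read 9.11 and 9.07 in B6g7 and 8.26 and 8.07 in BDC/B6g7 (-0.93 ± 0.11, adjusted p = 5.01e-05). In NOD it read 8.88 and 9.16 and in BDC/NOD 8.07 and 8.01 (-0.98 ± 0.11, adjusted p = 3.69e-05; -1.12 ± 0.11 without NOD DN2-3 replicate 1). No array of one genotype reached the other. Pdk1, another kinase of the same enzyme, fell in B6g7 by 0.57 and was not called in NOD. In the pentose phosphate pathway Tkt, transketolase, and Taldo1, transaldolase, rose in both strains, Taldo1 by 0.61 in B6g7 and 0.56 in NOD (0.47 ± 0.10 without that array). The rise of Tkt in NOD, 0.41 ± 0.11, was not called without that array (0.24 ± 0.10, adjusted p = 0.0953). Pgd, the oxidative-branch dehydrogenase, rose in NOD from 8.10 and 9.31 to 9.82 and 9.79 (1.10 ± 0.26, adjusted p = 0.00681; 0.50 ± 0.14 without NOD DN2-3 replicate 1). In B6g7 the Pgd means were 9.22 without the transgene and 9.85 with it, a difference that was not called. The standard deviations of these pairs were 0.01 and 0.02, against 0.85 in NOD DN2-3, which enters the same standard error.

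The strains overlapped in 9 members higher in BDC, 90% of the B6g7 calls and 47.4% of the NOD calls: Slc2a3, Pfkl, Pfkp, Aldoa, Pgk1, Pgam1, Pkm, Tkt and Taldo1. Of these, Tkt was not called in NOD without NOD DN2-3 replicate 1. The overlap over all genes was not computed, so these shares do not set the members apart. Proliferation markers moved with these members. Of 15 such markers tested, 12 were higher in BDC/B6g7 and 13 in BDC/NOD, and none was lower. Their summed intensity was 28520.1 to 28642.9 in B6g7 and 39062.6 to 39584.6 in BDC/B6g7, and it was 26656.2 to 31373.3 in NOD and 41371.7 to 42760.0 in BDC/NOD. Of 7 mature T cell markers, 4 were higher and 2 lower in BDC/B6g7, and 5 were higher and 2 lower in BDC/NOD. Of 12 double-negative stage markers, 1 was higher and 7 lower in BDC in each strain with all arrays. They were Il2ra, Cd44, Kit, Ptcra, Rag1, Rag2, Dntt, Notch1, Notch3, Cd8a, Cd8b1 and Cd4. Il2ra and Cd44 encode antigens of the sort gates. Cd8a, Cd8b1 and Cd4 encode the antigens of the cells removed by complement, so counts and sums mix genes of different meaning. The summed intensity of the 12 was 23622.8 to 25380.6 in B6g7 and 13820.5 to 13935.9 in BDC/B6g7, and 20729.8 to 25074.4 in NOD and 13719.1 to 14499.2 in BDC/NOD. That of the NK and NKT genes was 3309.7 to 3668.7 against 5448.8 to 6372.8 in B6g7 and 2823.1 to 2861.5 against 4308.4 to 4406.6 in NOD. The part of these markers in the result was not tested.

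With a repeated quantile normalization 11 members were higher in BDC/B6g7 and 4 lower, and with centring on the array medians 12 were higher and 4 lower. The B6g7 count of 16 was 10 when either B6g7 DN2-3 replicate 1 or BDC/B6g7 DN2-3 replicate 2 was left out. It was 4 when the 4 male arrays were left out, so that a single array stood for each BDC group. Leaving out each array in turn kept 8 of the 16 B6g7 calls throughout (Slc2a3, Pfkp, Pgk1, Pgam1, Ldhb, Pdk1, Pdk2 and Taldo1). The calls of Pfkl, Pfkfb2, Pfkfb4, Aldoa, Aldoc, Pkm, Pdk3 and Tkt ended under at least 1 of the arrays left out, with the largest adjusted p of 0.3 for Pfkfb4 without B6g7 DN2-3 replicate 1. Leaving out BDC/NOD DN2-3 replicate 1 took the NOD count from 21 to 13, and leaving out the male arrays took it to 5. It was 2 with only the arrays compared. In NOD 12 calls were kept throughout, among them Hk2, Pfkp, Aldoa, Tpi1, Pgk1, Pgam1, Pgd and Pdk2. Those of Slc2a1, Slc2a3, Pfkm, Pfkfb2, Ldha, Slc16a3, Pdha1, Pdhb and Tkt ended, with the largest adjusted p of 0.301 for Pfkfb2 without BDC/NOD DN2-3 replicate 2.

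The same comparison at DN4 gave a different set. BDC DN4 cells had more Slc2a3, Hk2, Pfkfb4, Slc16a3 and Pdk2 and less Slc16a1, Pdk3, Mpc1 and Tkt than non-Tg DN4 cells in both strains. These are calls with all arrays, and in NOD only those of Slc2a3, Pdk2 and Tkt were kept whichever array was left out. In B6g7, 12 members were higher and 7 lower, or 59.4%, next to 59.3% of all genes (30.1% higher and 29.2% lower), so the share itself did not set the members apart. In NOD, 6 were higher and 5 lower, or 34.4%, where 25.4% of all genes were called (10.6% higher and 14.8% lower). The members' differences ran from -1.79 to 2.21 in B6g7, with a median of 0.21, and from -0.81 to 1.32 in NOD, with a median of 0.01, and the medians over all genes were -0.02 and -0.03.

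Slc2a3 changed most. Its arrays read 8.16 and 8.16 in B6g7 DN4 and 10.46 and 10.28 in BDC/B6g7 DN4, a rise of 2.21 ± 0.20 log2 or 4.64-fold (adjusted p = 6.9e-07). In NOD DN4 they read 8.43 and 8.77 and in BDC/NOD DN4 9.90 and 9.94, a rise of 1.32 ± 0.20 (adjusted p = 0.000385). The effect in NOD minus that in B6g7 was -0.89 ± 0.28 (interaction term, adjusted p = 0.0396), a call that ended without NOD DN4 replicate 2 (adjusted p = 0.16). Slc2a1, the basal glucose transporter GLUT1, rose in B6g7 (1.03 ± 0.22, adjusted p = 0.00116), from 9.27 and 9.37 to 10.43 and 10.26, and was not called in NOD. Hk2 rose from 7.28 and 7.85 to 8.996 and 8.70 in B6g7 (1.29 ± 0.20, adjusted p = 8.59e-05). In NOD DN4 it read 7.48 and 7.94 and in BDC/NOD DN4 8.35 and 8.26, a difference of 0.59 ± 0.20 called at an adjusted p of 0.0433 that rose to 0.34 without NOD DN4 replicate 1.

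Pdk2 rose in both strains. It read 8.11 and 7.96 in B6g7 DN4 and 9.59 and 9.72 in BDC/B6g7 DN4 (1.62 ± 0.11, or 3.08-fold, adjusted p = 5.31e-08). In NOD DN4 it read 8.08 and 8.04 and in BDC/NOD DN4 8.98 and 8.86 (0.86 ± 0.11, adjusted p = 9.57e-05). The effect in NOD minus that in B6g7 was -0.76 ± 0.15 (adjusted p = 0.00405). Pdk3 went the other way, down by 0.69 in B6g7 and by 0.41 in NOD. Mpc1 fell from 11.22 and 11.10 to 10.05 and 10.32 in B6g7 (-0.97 ± 0.12, adjusted p = 1.83e-05) and by 0.54 ± 0.12 in NOD.

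Slc16a1 showed the largest fall in B6g7. It read 10.94 and 11.25 in B6g7 DN4 and 9.41 and 9.20 in BDC/B6g7 DN4, a difference of -1.79 ± 0.12 (adjusted p = 4.32e-08). NOD DN4 read 11.49 and 11.58 and BDC/NOD DN4 11.15 and 11.20, a difference of -0.36 ± 0.12 (adjusted p = 0.0381). The NOD arrays did not overlap, yet the difference lost its call without either array of NOD DN4 or of BDC/NOD DN4. The effect in NOD minus that in B6g7 was 1.43 ± 0.17 (adjusted p = 1e-04). Slc16a3, the lactate exporter MCT4, rose by 0.57 in B6g7 and by 0.46 ± 0.10 in NOD (adjusted p = 0.00591). Ldha read 11.62 and 11.91 against 12.13 and 12.04 in B6g7 and was called in neither strain. Ldhb fell in NOD by 0.81 ± 0.21 (adjusted p = 0.0137), and by its own-locus probe set in B6g7 as well (-0.76 ± 0.13, adjusted p = 0.000206).

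Among the lower glycolytic enzymes, Pgk1, Pgam1 and Tpi1, which were higher or not called in BDC/B6g7 DN2-3, were lower in BDC/B6g7 DN4. Pgk1 fell from 11.02 and 11.11 to 10.06 and 10.30 (-0.89 ± 0.12, adjusted p = 2.49e-05). Pgam1 fell from 10.77 and 10.76 to 9.99 and 10.08 (-0.73 ± 0.21, adjusted p = 0.00757). Neither was called in NOD, where Pgk1 read 11.32 and 11.37 without the transgene and 11.06 and 11.20 with it. Aldoc rose in B6g7 from 6.83 and 6.71 to 7.65 and 7.99 (1.05 ± 0.20, adjusted p = 0.000533). Pkm, pyruvate kinase M, rose in NOD by 0.53 ± 0.14 (adjusted p = 0.0139). The pentose phosphate enzyme Tkt fell from 9.61 and 9.63 to 8.56 and 8.66 in B6g7 (-1.01 ± 0.11, adjusted p = 4e-06) and from 9.87 and 9.92 to 9.38 and 9.37 in NOD (-0.52 ± 0.11, adjusted p = 0.0038), while Pgd rose in B6g7 by 0.77.

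**Figure D3:**
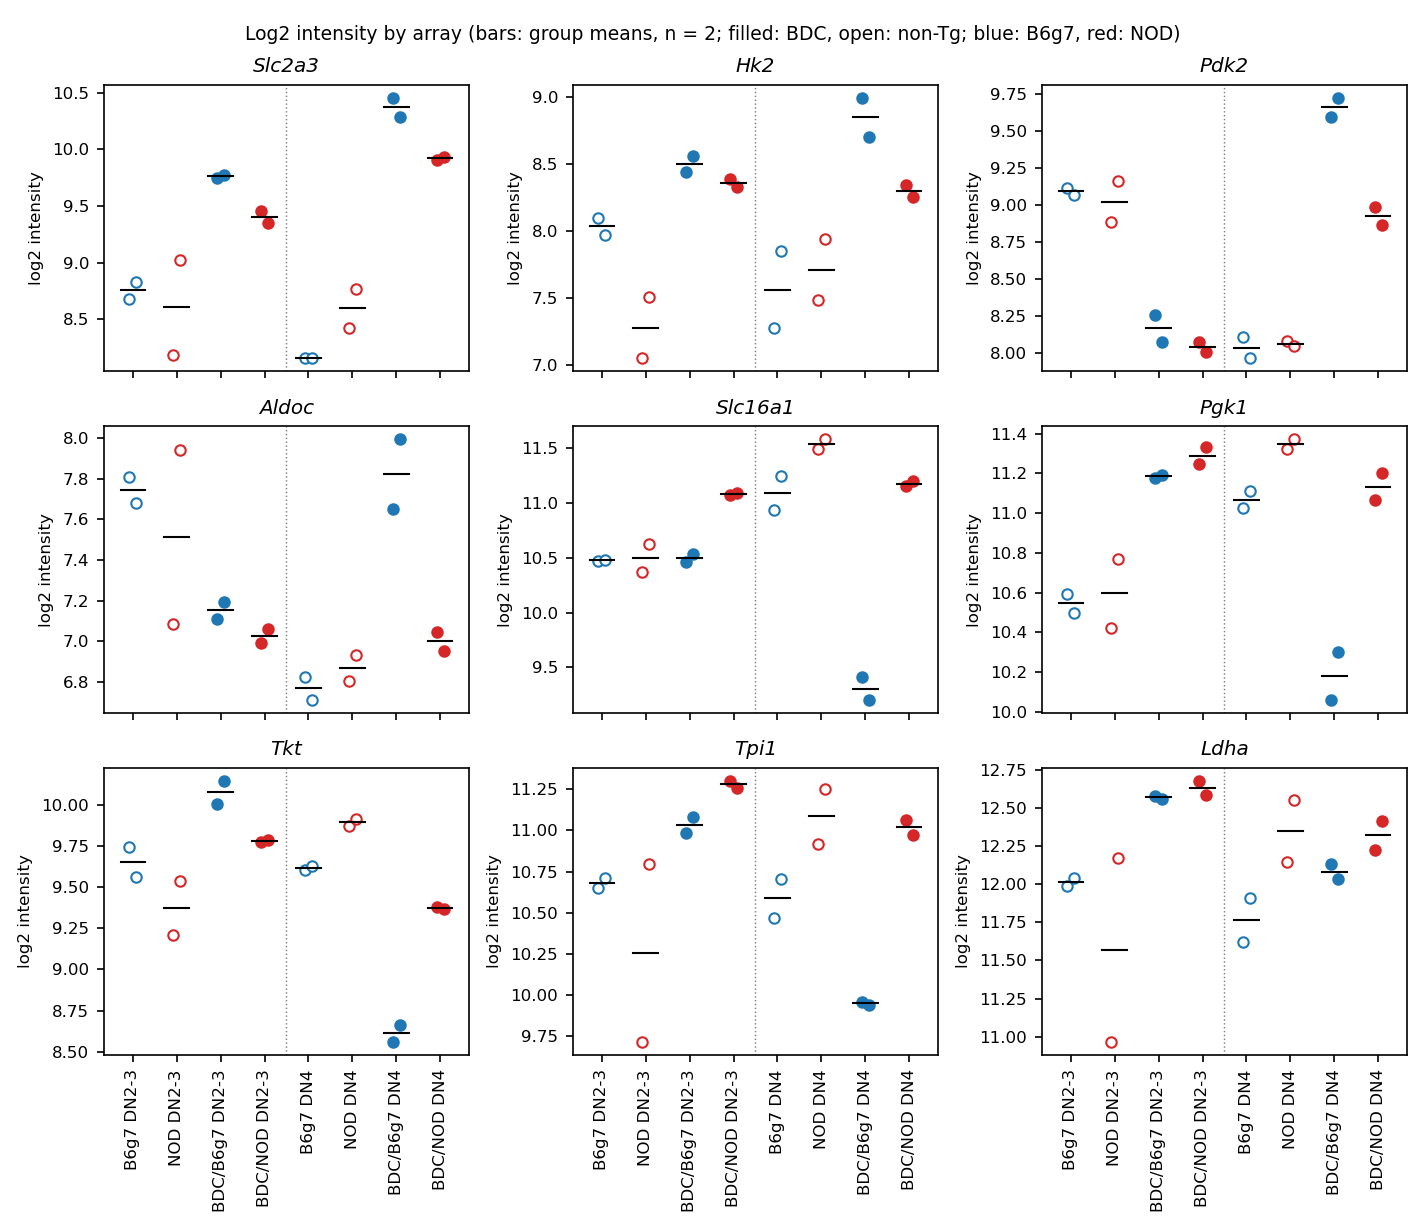
Log2 intensity (vertical axis) of 9 members on each array by group (horizontal axis), with group means as bars (n = 2), BDC filled and non-Tg open, B6g7 blue and NOD red. Slc2a3 is highest in BDC/B6g7 DN4 (10.46 and 10.28) and Slc16a1 is lowest there (9.41 and 9.20), while NOD DN2-3 replicate 1 lies under its partner for Ldha (10.97 and 12.17).

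The promoters of 4 members are shown with the motifs searched for, because these genes moved in opposite directions. They are the 2 members with the largest rise and the 2 with the largest fall in B6g7 DN4 among those with a promoter in the table used, which Slc2a3 lacked. The first motif was CACGTG, the E box that Myc and related factors bind. The next was ACGTG, the core letters of hypoxia response elements, which every E box of that form also holds. The last was GGGCGG, the Sp1 box, and all were sought on both strands. Each stretch is the 250 bases before the most upstream annotated start, 5′ to 3′ on the gene's strand, from RefSeq on GRCm38.p6, and capitals mark the hypoxia core and the Sp1 box in either orientation. Pdk2 and Hk2 rose, and Slc16a1 and Tkt fell. The windows lie at chr11:95041372-95041621 on the minus strand for Pdk2, chr6:82774455-82774704 on the minus strand for Hk2, chr3:104638414-104638663 on the plus strand for Slc16a1 and chr14:30548881-30549130 on the plus strand for Tkt.
Pdk2: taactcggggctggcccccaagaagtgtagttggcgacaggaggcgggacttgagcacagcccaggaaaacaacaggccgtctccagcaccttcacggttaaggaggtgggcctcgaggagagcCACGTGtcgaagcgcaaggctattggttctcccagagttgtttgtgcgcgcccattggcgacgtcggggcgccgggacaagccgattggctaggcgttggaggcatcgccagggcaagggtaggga
Hk2: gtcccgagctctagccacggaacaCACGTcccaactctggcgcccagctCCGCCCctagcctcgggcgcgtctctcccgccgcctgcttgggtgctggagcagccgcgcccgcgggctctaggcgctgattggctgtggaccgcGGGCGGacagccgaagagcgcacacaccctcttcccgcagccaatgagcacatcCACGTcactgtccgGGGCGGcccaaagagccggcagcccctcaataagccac
Slc16a1: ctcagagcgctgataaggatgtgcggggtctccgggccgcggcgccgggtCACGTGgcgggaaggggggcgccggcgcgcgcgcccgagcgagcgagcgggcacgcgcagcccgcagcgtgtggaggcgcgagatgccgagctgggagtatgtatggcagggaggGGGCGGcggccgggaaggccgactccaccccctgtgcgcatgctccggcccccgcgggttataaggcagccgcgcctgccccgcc
Tkt: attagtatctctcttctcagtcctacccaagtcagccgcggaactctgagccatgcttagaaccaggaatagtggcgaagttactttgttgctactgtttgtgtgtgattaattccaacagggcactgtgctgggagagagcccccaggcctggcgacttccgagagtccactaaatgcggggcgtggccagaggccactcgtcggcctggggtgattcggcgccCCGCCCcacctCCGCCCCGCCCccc

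Both directions held CACGTG, once in Pdk2 and once in Slc16a1. Hk2 held ACGTG letters at 2 places and GGGCGG at 3, and Tkt held GGGCGG 3 times and no ACGTG. Over all members, 38 of the 39 had 1 or more windows of 300 bases, 56 in all, running from 250 bases before to 50 after each start. CACGTG was in 6 of these (10.7%, against 7.15% of 32851 windows of all genes), ACGTG in 24 (42.9% against 19.6%) and GGGCGG in 34 (60.7% against 35.7%). The members with CACGTG were Pfkm, Pfkfb2, Pfkfb3, Ldha, Slc16a1 and Pdk2. A match describes letters in a window and not a bound site.

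Markers moved with the DN4 differences as well. All 15 proliferation markers were lower in BDC/B6g7 DN4, with summed intensities of 39398.5 to 41303.5 in B6g7 and 16678.3 to 17160.2 in BDC/B6g7. In NOD 7 of the 15 were lower, with 46995.0 to 47341.3 against 36810.2 to 38029.9. Of 7 markers of mature T cells, 6 were higher in each strain. Their sum was 2694.6 to 2977.1 in B6g7 and 8742.6 to 9869.4 in BDC/B6g7, and it was 2351.3 to 2554.5 in NOD and 5512.9 to 5881.5 in BDC/NOD. S1pr1, the receptor by which T cells leave the thymus, read 6.91 and 7.06 in B6g7 DN4 and 11.38 and 11.62 in BDC/B6g7 DN4. Of 3 NK and NKT genes tested, 2 were higher and 1 lower in each strain, and the list summed to 2009.0 to 2269.4 in B6g7 and 6969.8 to 7026.2 in BDC/B6g7. Of the 8 genes of the list, 4 passed background on at least 1 array, Gzma among them. Klrb1c and Ncr1 were among those that stayed under it on every array (at most 4.14 and 5.28). The part of these cells or states in the result was not tested. Of 12 double-negative stage markers, 2 were higher and 9 lower in BDC/B6g7 DN4, with sums of 11787.5 to 11796.6 in B6g7 and 6213.5 to 6350.5 in BDC/B6g7. In BDC/NOD DN4 6 were lower, with 11856.2 to 12886.3 against 9077.0 to 9432.7, and their part was not tested either.

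The B6g7 count of 19 was 12 without the 4 male arrays, and 17 calls were kept whichever array was left out, all but those of Tpi1 and Pgd. The call of Tpi1 ended at an adjusted p of up to 0.17, without B6g7 DN4 replicate 2. In NOD the count of 11 was 5 without NOD DN4 replicate 1, 7 without its replicate 2, 5 and 6 without BDC/NOD DN4 replicates 1 and 2, 2 without the male arrays and 17 with array weights. Slc2a3, Pdk2 and Tkt were kept whichever array was left out.

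The interaction of transgene and stage, the effect of BDC in DN4 minus that in DN2-3 averaged over the strains, was called for 18 of the 32 members, or 56.2%, next to 57.9% of all genes (26.4% positive and 31.5% negative). It was positive for 6 and negative for 12. Pdk2 had the largest, 2.20 ± 0.11 log2 (adjusted p = 6.19e-09): it was low in BDC DN2-3 and high in BDC DN4 in both strains. Aldoc (1.13 ± 0.20), Slc2a3 (0.87 ± 0.20) and all 3 Pfkfb genes were also positive. Pgam1 (-1.54 ± 0.21, adjusted p = 2.79e-05), Slc16a1 (-1.38 ± 0.12), Pgk1 (-1.22 ± 0.12), Tkt (-1.18 ± 0.11), Tpi1 (-1.04 ± 0.24) and Pfkp (-1.02 ± 0.12) were negative. Without NOD DN2-3 replicate 1 the counts were 6 and 11, with 65.1% of all genes called, Pfkl lost its call, and the members' median went from -0.31 to -0.08. Pdk2 was then 2.27 ± 0.10, Slc2a3 1.07 ± 0.11, Pgam1 -1.31 ± 0.10 and Slc16a1 -1.32 ± 0.11. All 15 proliferation markers were negative for this term with all arrays, and their part was not tested. Pfkl and Ldha also lost it without most other single arrays, with the largest adjusted p of 0.116 for Pfkl without BDC/B6g7 DN2-3 replicate 2.

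Some members were called in opposite directions at the 2 stages. The share of all genes called so was not computed. The interaction of transgene and stage was called for 56.2% of the members and 57.9% of all genes, so such reversals are not read as particular to the members. In B6g7, Pgk1, Pgam1, Pdk3 and Tkt were higher in BDC at DN2-3 and lower at DN4, and Pfkfb4, Aldoc and Pdk2 were lower at DN2-3 and higher at DN4. In NOD, Slc16a1 and Tkt were higher at DN2-3 and lower at DN4, and Pdk2 was the reverse. The NOD call of Tkt at DN2-3 was lost without NOD DN2-3 replicate 1, and that of Slc16a1 at DN4 without any 1 of the 4 DN4 arrays compared.

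**Figure D4:**
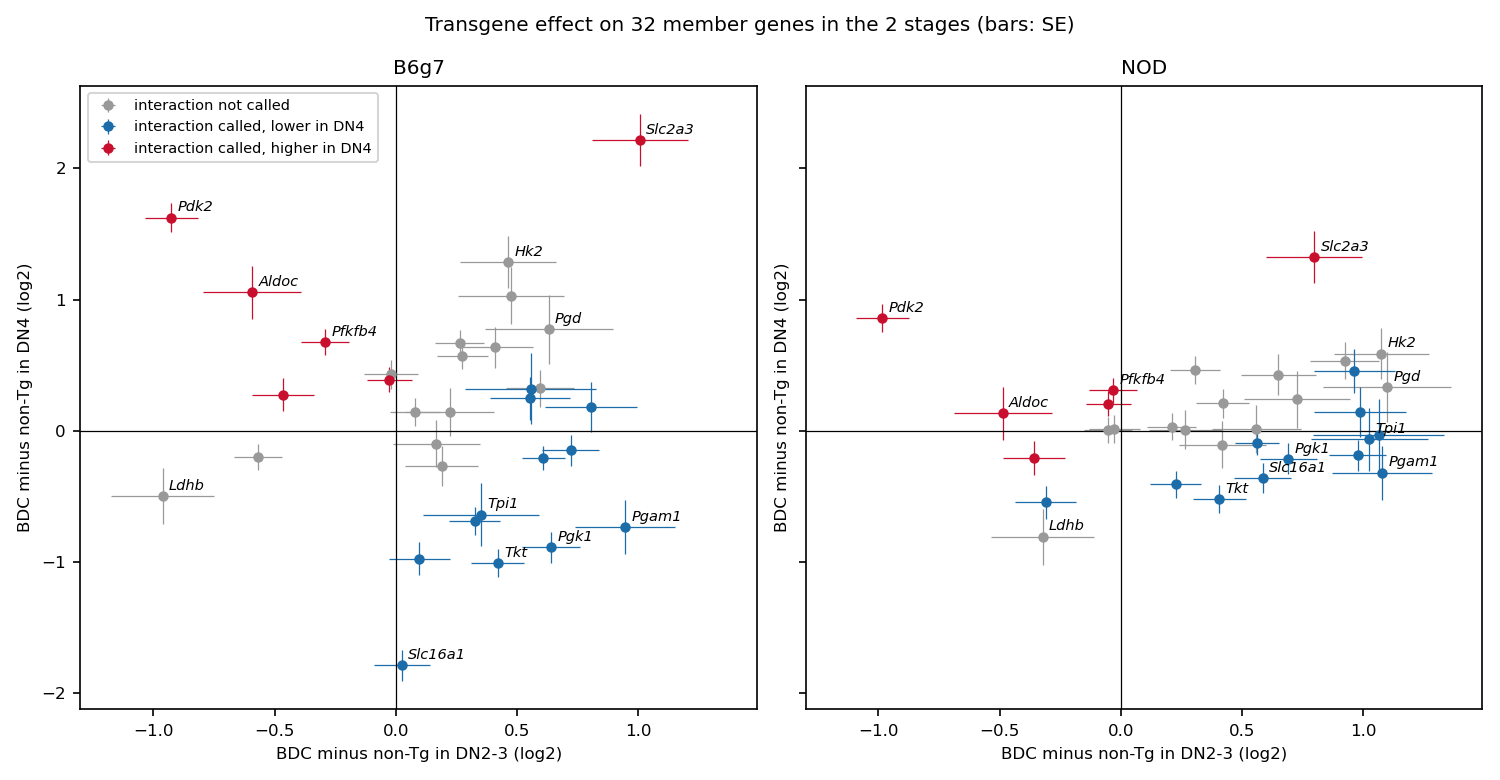
Difference between BDC and non-Tg (log2) in DN2-3 on the horizontal axis and in DN4 on the vertical axis for 32 members, B6g7 at left and NOD at right, with standard errors as bars and colour by the interaction of transgene and stage. Pdk2 lies at upper left in both panels (-0.93 and 1.62 in B6g7), and Pgam1, Pgk1 and Tkt lie at lower right.

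The next comparison followed the cells from DN2-3 to DN4 in mice without the transgene. In both strains Pdk2, Aldoc and Pfkfb3 fell and Pfkp, Pgk1, Slc16a1 and Pdk3 rose by their brightest probe sets. By its own-locus probe set and with all arrays, Pgam1 rose in both strains as well. The rise was 0.45 ± 0.12 in B6g7 (limma adjusted p = 0.00794) and 0.58 ± 0.12 in NOD (adjusted p = 0.00201). Its brightest probe set was not called in B6g7 (0.42 ± 0.21, adjusted p = 0.118). In B6g7, 5 members were higher in DN4 and 7 lower, or 37.5%, where 42.8% of all genes were called (17.8% higher and 25% lower). In NOD, 14 were higher and 3 lower, or 53.1%, where 38.7% of all genes were called (26.4% higher and 12.3% lower). Without NOD DN2-3 replicate 1 they were 9 and 4, with 36% of all genes called. Members shared by the strains made up 80% of the B6g7 rises and 28.6% of the NOD rises, and 42.9% and 100% of the falls. The overlap over all genes was not computed here either.

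Pfkp rose in B6g7 from 8.60 and 8.65 to 9.29 and 9.44 (0.74 ± 0.12, adjusted p = 0.000338) and in NOD from 8.23 and 8.54 to 9.42 and 9.54 (1.09 ± 0.12, adjusted p = 1.83e-05; 0.94 ± 0.12 without NOD DN2-3 replicate 1). Slc16a1 rose in B6g7 from 10.47 and 10.48 to 10.94 and 11.25 (0.62 ± 0.12, adjusted p = 0.00112). In NOD it rose from 10.37 and 10.62 to 11.49 and 11.58 (1.04 ± 0.12, adjusted p = 2.49e-05; 0.91 ± 0.12 without that array). The stages did not overlap for either gene, a separation whose share over all genes was not computed. Pgk1 rose by 0.52 ± 0.12 in B6g7 and by 0.75 in NOD (0.58 ± 0.11 without that array), and Mpc1 rose in B6g7 by 0.82 ± 0.12 (adjusted p = 0.000248). Pdk2 fell from 9.11 and 9.07 to 8.11 and 7.96 in B6g7 (-1.06 ± 0.11, adjusted p = 1.09e-05) and from 8.88 and 9.16 to 8.08 and 8.04 in NOD (-0.96 ± 0.11, adjusted p = 2.6e-05; -1.10 ± 0.11 without NOD DN2-3 replicate 1). Pfkfb3, the PFK-2 isoform with the strongest drive toward glycolysis, fell by 0.71 in B6g7 and 0.48 in NOD (-0.55 ± 0.11 without that array). Both glucose transporters fell in B6g7, Slc2a1 by 0.61 ± 0.22 and Slc2a3 by 0.60 ± 0.20.

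In NOD 5 of the 7 tested members of lower glycolysis, Ldha and Ldhb were called higher in DN4 and Aldoc lower, but several of these calls rested on NOD DN2-3 replicate 1. Ldhb rose from 8.26 and 8.96 to 9.33 and 9.55 (0.83 ± 0.21; 0.48 ± 0.19, adjusted p = 0.0587, without it). Tpi1 rose from 9.71 and 10.80 to 10.92 and 11.25 (0.83 ± 0.24; 0.29 ± 0.13, adjusted p = 0.101, without it). Pgam1 was called with the array (0.81 ± 0.21) and without it (0.35 ± 0.12). Ldha and Pdhb were called although the arrays of the stages overlapped. Without the array Pfkm, Aldoa, Tpi1, Ldha, Ldhb and Pdhb lost their calls, and Slc2a3 (-0.43 ± 0.13) and Mpc1 (0.40 ± 0.13) were called.

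Proliferation markers rose with the stage, 11 of 15 in B6g7 and, with all arrays, 15 of 15 in NOD. Their summed intensity was 28520.1 to 28642.9 in B6g7 DN2-3 and 39398.5 to 41303.5 in B6g7 DN4. In NOD DN2-3 it was 26656.2 on replicate 1 and 31373.3 on replicate 2, and in NOD DN4 46995.0 to 47341.3. The part of these markers in the result was not tested. Of 12 double-negative stage markers, 3 were higher and 8 lower in DN4 in B6g7, and with all arrays 3 were higher and 4 lower in NOD. The list holds Il2ra and Cd44, genes of the gate antigens, so part of these counts may be set by the sort. The NOD count of 17 was 9 without NOD DN4 replicate 2, 10 without the male arrays, 8 with array weights and 3 with only the arrays compared. Whichever array was left out, 9 of the 17 NOD calls were kept (Pfkp, Pfkfb3, Pgk1, Bpgm, Slc16a1, Pdk2, Pdk3, Tkt and Taldo1). Those of Pfkm, Aldoa, Aldoc, Tpi1, Pgam1, Ldha, Ldhb and Pdhb ended, with the largest adjusted p of 0.39 for Ldha without NOD DN2-3 replicate 1. In B6g7 9 of 12 calls were kept whichever array was left out, all but those of Slc2a1, Slc2a3 and Pfkfb4, with the largest adjusted p of 0.157 for Slc2a1 without B6g7 DN4 replicate 1.

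The same step was then followed in mice with the transgene. In BDC/B6g7, 7 members were higher in DN4 and 11 lower, or 56.2%, where 50.8% of all genes were called (20.4% higher and 30.4% lower). In BDC/NOD, 2 were higher and 1 lower, or 9.38%, where 11.1% of all genes were called (7.69% higher and 3.42% lower). Tkt fell most in BDC/B6g7, from 10.01 and 10.15 to 8.56 and 8.66 (-1.46 ± 0.11, adjusted p = 3.14e-07). Pgam1 fell from 11.40 and 11.19 to 9.99 and 10.08 (-1.26 ± 0.21, adjusted p = 0.000198), and Slc16a1 from 10.47 and 10.54 to 9.41 and 9.20 (-1.20 ± 0.12, adjusted p = 2.73e-06). Tpi1 (-1.09 ± 0.24) and Pgk1 (-1.01 ± 0.12) fell as well. The stages did not overlap for any of these members, but the share of all genes without overlap was not computed.

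Pdk2 rose with stage in both transgenic strains, the opposite direction to non-Tg cells. It went from 8.26 and 8.07 to 9.59 and 9.72 in BDC/B6g7 (1.49 ± 0.11, adjusted p = 2.6e-07) and from 8.07 and 8.01 to 8.98 and 8.86 in BDC/NOD (0.88 ± 0.11, adjusted p = 0.000183). Aldoc rose in BDC/B6g7 by 0.67 ± 0.20, Slc2a3 by 0.61 ± 0.20 and Pfkfb4 by 0.58 ± 0.10. In BDC/NOD the other calls were Bpgm, which makes the haemoglobin ligand 2,3-bisphosphoglycerate, higher by 0.46 ± 0.10, and Tkt, lower by 0.41 ± 0.11 (adjusted p = 0.0287). Pgam1 was called lower there by its own-locus probe set (-0.56 ± 0.12, limma adjusted p = 0.00807) and not by its brightest (-0.59 ± 0.21, adjusted p = 0.0897).

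All 15 proliferation markers fell with stage in BDC/B6g7 and 2 of 15 in BDC/NOD. Of 12 double-negative stage markers, which include the gate genes Il2ra and Cd44, 8 fell in BDC/B6g7, and 3 rose and 3 fell in BDC/NOD. The part of these markers was not tested. The BDC/B6g7 count of 18 was 5 without the male arrays, and 10 calls were kept whichever array was left out (Pfkfb4, Tpi1, Pgk1, Pgam1, Slc16a1, Pdk2, Pdk3, Pgls, Tkt and Taldo1). The largest adjusted p among the calls that ended was 0.253, for Pkm without BDC/B6g7 DN2-3 replicate 2. In BDC/NOD the count of 3 was 1 without BDC/NOD DN2-3 replicate 1 or BDC/NOD DN4 replicate 1, 6 without either NOD DN2-3 array 0 without the male arrays, 12 with array weights, 13 with only the arrays compared and 6 with a random replicate block, and only the call of Pdk2 was kept whichever array was left out. With a repeated quantile normalization 2 members were higher and 3 lower, and with centring on the array medians 2 were higher and 0 lower.

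**Figure D5:**
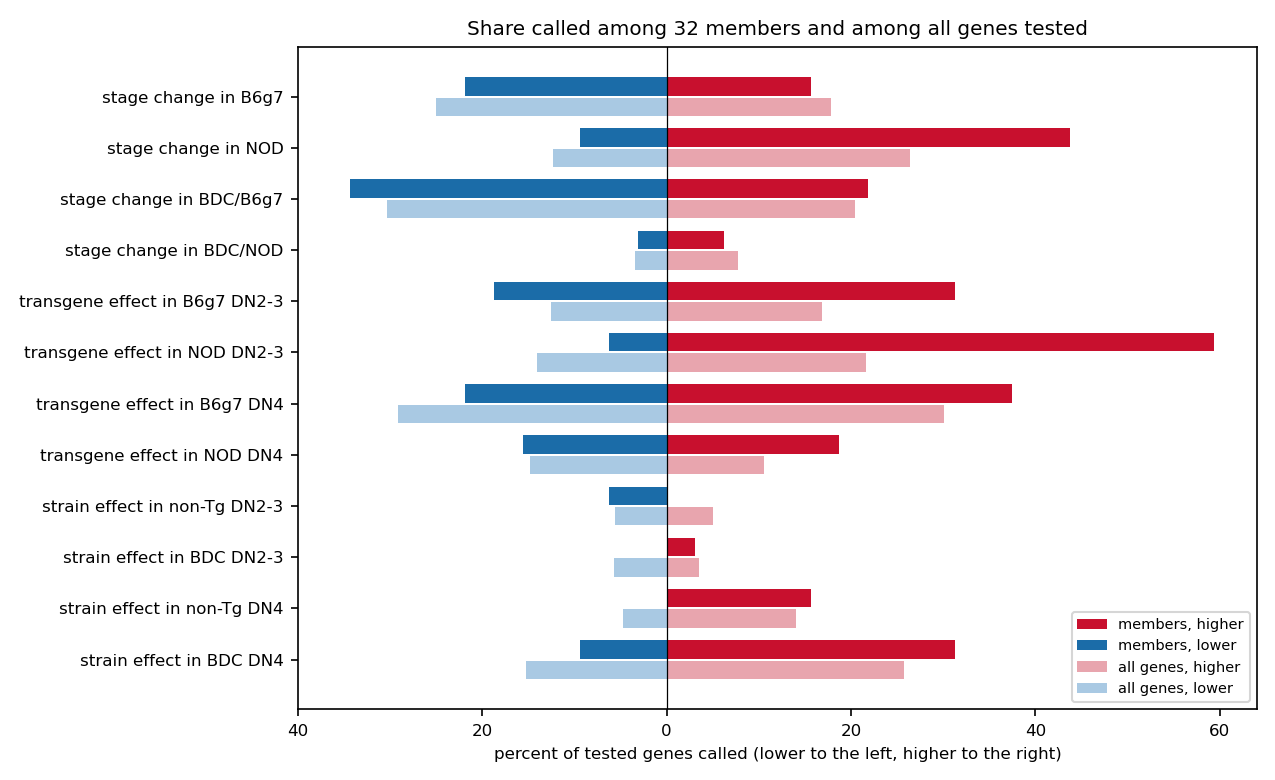
Percent of the 32 tested members (dark) and of all genes tested (pale) called higher (right of 0) or lower (left) in each of the 12 comparisons of 2 groups. The share of members called is furthest above that of all genes for the transgene in NOD DN2-3 (65.6% against 35.7%) and nearly equal for the transgene in B6g7 DN4 (59.4% against 59.3%).

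The remaining comparisons set NOD against B6g7, and with all arrays most calls came in transgenic DN4 cells. That order did not hold without NOD DN2-3 replicate 1, which enters the DN4 comparisons only through the shared estimate of spread. In BDC DN4, 10 members were higher in NOD and 3 lower, or 40.6%, where 41.1% of all genes were called (25.8% higher and 15.3% lower). Slc16a1 read 9.41 and 9.20 in BDC/B6g7 DN4 and 11.15 and 11.20 in BDC/NOD DN4 (1.87 ± 0.12, or 3.66-fold, adjusted p = 1.25e-07). Tpi1 read 9.96 and 9.94 in BDC/B6g7 and 11.07 and 10.97 in BDC/NOD (1.07 ± 0.24, adjusted p = 0.0028), and Pgk1 read 10.06 and 10.30 and then 11.06 and 11.20 (0.95 ± 0.12, adjusted p = 2.95e-05). The gaps were wide against the spread of each pair. Tkt (0.76 ± 0.11) and Pgam1 (0.70 ± 0.21) were also higher in NOD. Lower in NOD were Aldoc (-0.82 ± 0.20, adjusted p = 0.00507), Pdk2 (-0.74 ± 0.11, adjusted p = 0.000125) and Hk2 (-0.55 ± 0.20, adjusted p = 0.0396), which had all risen with the transgene in B6g7 DN4.

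All 15 proliferation markers were higher in BDC/NOD DN4 than in BDC/B6g7 DN4, and 6 of 7 mature T cell markers were lower and 1 higher. Of 12 double-negative stage markers, 7 were higher and 2 lower. Their part in the strain difference was not tested. With a repeated quantile normalization 9 members were higher and 6 lower. The count of 13 was 8 without any 1 of the 4 arrays compared and 4 without the male arrays. Calls of Tpi1, Pgk1, Slc16a1, Pdk2, Pdk3 and Tkt were kept whichever array was left out, and the largest adjusted p among the others was 0.241, for Hk2 without BDC/B6g7 DN4 replicate 1.

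With all arrays, fewer members were called for strain in the other 3 pairs. In non-Tg DN4, 5 members were higher in NOD and none was lower, or 15.6%, where 18.8% of all genes were called (14.0% higher and 4.75% lower). The members were Ldhb, Bpgm, Pfkfb2, Slc16a1 and Pfkm. Slc16a1 read 10.94 and 11.25 in B6g7 and 11.49 and 11.58 in NOD (0.44 ± 0.12, adjusted p = 0.0224). Bpgm read 7.07 and 7.27 in B6g7 and 7.67 and 7.77 in NOD (0.55 ± 0.10, adjusted p = 0.00352), and its call alone was kept whichever array was left out. A repeated quantile normalization moved the median of all genes here from 0.13 to 0.02 and left 2 members called. The share of all genes called is not given beside the counts that follow, so they describe stability only. The count was 17 without either NOD DN2-3 array, which enter only the shared estimate of spread, 1 without B6g7 DN4 replicate 1, NOD DN4 replicate 1 or NOD DN4 replicate 2, and 3 without any 1 of 8 other arrays. It was 1 without the male arrays, 11 with array weights and 10 with only the arrays compared.

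In non-Tg DN2-3, Hk2 and Pdk1 were lower in NOD and no member was higher, or 6.25%, where 10.6% of all genes were called (4.99% higher and 5.58% lower). With all arrays Ldhb was lower in NOD as well by its own-locus probe set (-0.47 ± 0.13, limma adjusted p = 0.0357). By its brightest it was not called (-0.32 ± 0.21, adjusted p = 0.332). Pdk1 read 9.36 and 9.38 in B6g7 and 8.90 and 8.74 in NOD (-0.55 ± 0.10, adjusted p = 0.00336; -0.63 ± 0.11 without NOD DN2-3 replicate 1). Hk2 read 8.10 and 7.97 in B6g7 and 7.05 and 7.51 in NOD (-0.76 ± 0.20, adjusted p = 0.0284) and was not called without that array (adjusted p = 0.152). The count of 2 became 20 without NOD DN2-3 replicate 2, where the array that stood apart was the only one left for NOD, and 1 without either B6g7 DN2-3 array or NOD DN2-3 replicate 1. It was 1 without the male arrays, and 0 with array weights or with only the arrays compared. In BDC DN2-3 1 member was called, or 3.12%, where 9.21% of all genes were called (3.54% higher and 5.67% lower). Slc16a1 read 10.47 and 10.54 in BDC/B6g7 and 11.07 and 11.09 in BDC/NOD (0.58 ± 0.12, adjusted p = 0.0061), a call that ended without BDC/B6g7 DN2-3 replicate 1 or BDC/NOD DN2-3 replicate 2 (adjusted p up to 0.0575). The count was 3 without either NOD DN2-3 array, 0 without the male arrays, 2 with array weights or with no filter, and 3 with only the arrays compared.

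The strain effect itself depended on genotype and stage for a few members. In DN4 it differed between BDC and non-Tg for 7 members, 3 positive and 4 negative, or 21.9%, where 20.2% of all genes were called (9.23% positive and 11.0% negative). These were Slc16a1 (1.43 ± 0.17), Pgk1 (0.67 ± 0.17), Tkt (0.49 ± 0.15), Bpgm (-0.64 ± 0.14), Pdk2 (-0.76 ± 0.15), Slc2a3 (-0.89 ± 0.28) and Aldoc (-0.92 ± 0.29). Centring on the array medians gave 2 positive and 6 negative. The count was 15 without either NOD DN2-3 array and 4 without any 1 of 8 other arrays (both arrays of BDC/NOD DN2-3, BDC/B6g7 DN4 and BDC/NOD DN4, B6g7 DN4 replicate 1 and NOD DN4 replicate 2). It was 1 without the male arrays, 11 with array weights and 12 with only the arrays compared. Slc16a1, Bpgm and Pdk2 were kept whichever array was left out.

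Within BDC mice the strain effect differed between the stages for 5 members, 4 positive and 1 negative, or 15.6%, where 15.8% of all genes were called (12.2% positive and 3.57% negative). Slc16a1 (1.29 ± 0.17, adjusted p = 0.000239), Tkt (1.06 ± 0.15, adjusted p = 0.000589) and Pgk1 (0.85 ± 0.17, adjusted p = 0.00399) were kept whichever array was left out, and Pdk3 (0.50 ± 0.15) and Pdk2 (-0.61 ± 0.15) were not, with adjusted p up to 0.135. The count was 10 without either NOD DN2-3 array and 3 without BDC/NOD DN2-3 replicate 1, BDC/B6g7 DN4 replicate 2 or BDC/NOD DN4 replicate 2. It was 0 without the male arrays, 9 with a random replicate block, and 11 with array weights or with only the arrays compared.

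Other genes of the pathway were read from 3 further lists. Of 20 tested genes for other steps and isoforms, 6 rose and 1 fell in BDC/B6g7 DN2-3 and 8 rose in BDC/NOD DN2-3. These are 35% and 40% of the list, next to 29.4% and 35.7% of all genes, and without NOD DN2-3 replicate 1 the NOD counts were 4 and 1, or 25%. In DN4 4 rose and 7 fell in B6g7 and 1 rose and 2 fell in NOD. Dlat and Pdhx, structural subunits of the pyruvate dehydrogenase complex, were higher in BDC/B6g7 DN2-3 (0.36 ± 0.09 and 0.44 ± 0.10) and lower in BDC/B6g7 DN4 (-0.52 ± 0.09 and -0.54 ± 0.10). Prps1, which makes phosphoribosyl pyrophosphate from ribose phosphate, did likewise (0.41 ± 0.13 and -0.87 ± 0.13). Emb, the embigin chaperone of monocarboxylate transporters, rose with the transgene in all 4 contexts, by 0.65 ± 0.09 and 1.45 ± 0.09 (1.49 ± 0.11 without NOD DN2-3 replicate 1) in DN2-3 and by 1.24 ± 0.09 and 1.36 ± 0.09 in DN4 of B6g7 and NOD. Slc16a7, the monocarboxylate transporter MCT2, fell in DN4 of both strains (-0.78 ± 0.15 and -0.74 ± 0.15).

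Of 24 tested regulators of glucose use, 10 rose and 2 fell in BDC/B6g7 DN4, and 4 rose and 2 fell in BDC/NOD DN4. Txnip, an arrestin that removes glucose transporters from the cell surface, was lower in BDC DN2-3 (-1.21 ± 0.13 in B6g7 and -1.01 ± 0.13 in NOD, or -1.12 ± 0.15 without NOD DN2-3 replicate 1) and higher in BDC DN4 (1.14 ± 0.13 and 0.81 ± 0.13). Hif1a, the oxygen-regulated factor that drives glycolytic genes, rose in DN4 of both strains (0.81 ± 0.08 and 0.54 ± 0.08). Myc, a driver of growth and glycolysis, fell in BDC/B6g7 DN4 (-1.58 ± 0.22, adjusted p = 3.6e-05) and was not called in BDC/NOD DN4. Of 11 tested genes of glycogen metabolism and gluconeogenesis, 2 rose and 2 fell in BDC/B6g7 DN4, among them Pygm, muscle glycogen phosphorylase (1.27 ± 0.10), and Gys1, glycogen synthase (0.93 ± 0.13). Gys1 also rose in NOD (0.38 ± 0.13), with 1 higher and 2 lower of the list. Over all genes the shares called were 59.3% in B6g7 DN4 and 25.4% in NOD DN4.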

How the data were processed

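RNA of sorted CD4- CD8- thymocytes was extracted with Trizol, labelled with biotin and hybridised to 16 Affymetrix arrays, per the labels' protocols. The authors deposited 1 table of linear intensity values for 25108 probe sets, summarised by RMA in Affymetrix Power Tools per the submitters' processing notes, versions not being given in the sources used here. Precision is limited by the number of arrays.

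From these, log2 intensity was taken with no pseudocount and no further normalization. The platform annotation named 1 symbol for 21157 probe sets, several for 1341 and none for 2610, and the brightest single-symbol probe set stood for each of 19531 genes. Genes entered the tests where the highest group mean reached 7.06 log2. One limma model (limma 3.58.1 in R 4.3.3) with 8 group means gave 12 contrasts of 2 groups and 3 interactions, with 8 residual and 5.05 prior degrees of freedom and Benjamini-Hochberg adjustment over 10662 genes, two-sided. Values after ± are standard errors of that model. The code was tested on simulated data.

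The members and lists were chosen with earlier results of these data known. Full statistics are given for up to 5 called members with the largest difference in each direction of each comparison, and for up to 4 called genes of a pathway list. Deviations of same-numbered arrays correlated from -0.254 to 0.585 over 28 pairs of groups. Between the stages of 1 strain and genotype the correlation was 0.101 to 0.585, above 0.1 in all 4. Among the BDC groups, where replicate 1 is the male, it was 0.315 to 0.48. The labels name no animal or day shared by a number and each group has 2 arrays, so the main model has no block, and a random block is given beside the 2 counts it moved. Alternatives were other filters, probe sets, normalizations, replicate blocks, sex terms, array weights, variance priors and subsets of arrays. Motifs were counted on both strands of RefSeq windows on GRCm38.p6.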

Additional observations from a re-analysis of the deposited data

Results flagged for a closer look

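Each value here is an interaction term, so the difference between 2 effects was itself tested with limma over all genes, and it was singled out because the effects of 2 groups differed under the same contrast. The transgene effect in DN4 minus that in DN2-3, averaged over the strains, was positive for Pdk2 (2.20 ± 0.11), Aldoc (1.13 ± 0.20), Slc2a3 (0.87 ± 0.20), Pfkfb4 (0.65 ± 0.10), Pfkfb2 (0.45 ± 0.13) and Pfkfb3 (0.34 ± 0.09). It was negative for Pgam1 (-1.54 ± 0.21), Slc16a1 (-1.38 ± 0.12), Pgk1 (-1.22 ± 0.12), Tkt (-1.18 ± 0.11), Tpi1 (-1.04 ± 0.24) and Pfkp (-1.02 ± 0.12). It was also negative for Pdk3 (-0.82 ± 0.10), Taldo1 (-0.74 ± 0.09), Aldoa (-0.73 ± 0.19), Ldha (-0.66 ± 0.27), Mpc1 (-0.65 ± 0.12) and Pfkl (-0.41 ± 0.17). The calls of Pfkl (adjusted p = 0.0494) and Ldha (adjusted p = 0.0489) lay closest to the threshold.

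The strain effect in DN4 in BDC minus that in non-Tg was positive for Slc16a1 (1.43 ± 0.17), Pgk1 (0.67 ± 0.17) and Tkt (0.49 ± 0.15). It was negative for Aldoc (-0.92 ± 0.29), Slc2a3 (-0.89 ± 0.28), Pdk2 (-0.76 ± 0.15) and Bpgm (-0.64 ± 0.14). Within BDC mice the strain effect in DN4 minus that in DN2-3 was positive for Slc16a1 (1.29 ± 0.17), Tkt (1.06 ± 0.15), Pgk1 (0.85 ± 0.17) and Pdk3 (0.50 ± 0.15) and negative for Pdk2 (-0.61 ± 0.15).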

How the results depend on the processing

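Of the 168 called pairwise differences and interactions of members, 148 kept their call with no filter, 156 with a repeated quantile normalization, 154 after centring on the array medians, 151 with array weights, 154 with sex as a term and 67 without the 4 male arrays. With only the arrays compared, 115 of 150 kept it. With the repeated quantile normalization the stage change in BDC/NOD went from 3 members to 5 and the strain effect in non-Tg DN4 from 5 to 2, and with no filter the strain effect in BDC DN2-3 went from 1 to 2. By the own-locus probe set, an alternative chosen after seeing the data, the strain effect of Ldhb in non-Tg DN4 turned to -0.34. Member counts in this section come without the share of all genes called under the same setting, so they describe stability only.

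Without the 4 male arrays, which leaves each BDC group with 1 array assumed to vary like the others, the stage change gave 10 members in NOD, 5 in BDC/B6g7 and 0 in BDC/NOD. The transgene effect then gave 4 in B6g7 DN2-3, 5 in NOD DN2-3, 12 in B6g7 DN4 and 2 in NOD DN4. The strain effect gave 1 in non-Tg DN2-3, 0 in BDC DN2-3, 1 in non-Tg DN4 and 4 in BDC DN4, and the interactions of strain gave 1 with transgene and 0 with stage. Array weights gave 8 members for the stage change in NOD, 12 in BDC/NOD, 17 for the transgene in NOD DN4, and 0, 2 and 11 for strain in non-Tg DN2-3, BDC DN2-3 and non-Tg DN4. They gave 11 for each interaction of strain. With only the arrays compared, the counts were 3 and 13 for the stage change in NOD and BDC/NOD, 2 for the transgene in NOD DN2-3, 0, 3 and 10 for strain in non-Tg DN2-3, BDC DN2-3 and non-Tg DN4, and 12 and 11 for the interactions of strain with transgene and with stage.

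Leaving out 1 array at a time, the counts ran from 9 to 18 for the stage change in B6g7, 9 to 25 in NOD, 13 to 24 in BDC/B6g7 and 1 to 6 in BDC/NOD. The transgene effect ran from 10 to 24 in B6g7 DN2-3, 13 to 24 in NOD DN2-3, 17 to 25 in B6g7 DN4 and 5 to 15 in NOD DN4. The strain effect ran from 1 to 20 in non-Tg DN2-3, 0 to 3 in BDC DN2-3, 1 to 17 in non-Tg DN4 and 8 to 16 in BDC DN4. The interactions ran from 16 to 24 for transgene and stage, 4 to 15 for strain and transgene and 3 to 10 for strain and stage.

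With the replicate number as a block, 166 of the 168 calls were kept, and those of Pfkfb2 for the transgene in NOD DN2-3 and Pfkm for strain in non-Tg DN4 were lost. A random replicate block gave 6 members for the stage change in BDC/NOD and 9 for the interaction of strain and stage. A block with the NOD DN2-3 numbers crossed, chosen after seeing the data, gave 20 members for the transgene in NOD DN2-3 and 2 for strain in non-Tg DN2-3. Signal near background limits Hk3 and Eno2.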
